A study of Mus musculus with 6 samples.

Results

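The apical surface of an absorptive epithelial cell carries a brush border, a dense array of microvilli that enlarges the membrane facing the gut lumen. Each microvillus holds a bundle of parallel actin filaments. Bundling proteins cross-link the filaments, linkers tie them to the membrane, and protocadherins at the tips join neighbouring microvilli so that they pack evenly. In the colon the brush border is most developed in mature surface cells.

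Messenger RNA of 10 brush border genes was followed here in colon epithelium. The genes were Vil1 (villin), Espn, Pls1, Eps8, Ezr, Myo1a, Cdhr2, Cdhr5, Ush1c and Myo7b. The rule took every probe set, a small group of short array probes, whose annotation gave one of these symbols and no other. It found 13 probe sets among 45101 on the array, covering all 10 genes among 18193 measured. Ezr had 2 of them, Eps8 had 3 and each of the others had 1. No filter on low values was applied, so all 13 were tested.

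The knockout group consisted of 3 arrays of colon epithelium from mice lacking Bcl9 and Bcl9l (vil-Cre-Bcl9-/-/Bcl9l-/-), made from pools of 3, 2 and 2 mice (knockout 1, 2 and 3). The wild-type group consisted of 3 arrays from pools of 3 mice each (wild type 4, 5 and 6). Mice of both groups had a mixed 129SvEv/C57BL/6/DBA/2 background and an age of 12 weeks, and the epithelium was released with EDTA and not sorted. BCL9 and BCL9L are co-activators of beta-catenin in the Wnt pathway, and the comparison asks which transcripts of healthy colon epithelium depend on them. The vil-Cre transgene, which uses the villin promoter to delete genes in intestinal epithelium, is named in the labels for the knockouts alone, so effects of Cre and of the missing co-activators cannot be told apart.

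The arrays were alike in their general level, with medians of 5.44 to 5.58 on the log2 scale. The epithelial markers Epcam, Cdh1, Krt8, Krt18, Krt19, Cldn3, Cldn7, Tspan8 and Lgals4 all lay above the median gene, and their level, the median over the 9 genes of values centred on each gene's mean, ran from -0.03 to 0.03 over the knockout arrays and from -0.004 to 0.02 over the wild-type arrays. Wild type 6 stood apart. Its level over 11 measured B and plasma cell markers was 2.58, against -0.78 and -0.01 in the rest of its group and between -0.72 and -0.47 in the knockouts. It was also the highest array for markers of macrophages and dendritic cells (0.82), fibroblasts (0.62), T cells and intraepithelial lymphocytes (0.55) and smooth muscle (0.41). Each member is therefore also given without this array. The Bcl9 and Bcl9l probe sets differed between genotypes by -0.20 to 0.22, and the sources used here do not say whether they lie in the deleted part of the genes.

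For Vil1 and Espn, the 250 bases before an annotated transcript start are shown, because the villin promoter is the element that names the transgene and Espn was the member that differed most between the groups. Both come from RefSeq, assembly GRCm38.p6, and are written 5′ to 3′ on the strand of the gene. The Vil1 window is chr1:74409134-74409383 on the plus strand, and capitals mark a match to the CArG box, the motif of serum response factor, that starts 73 bases before the transcript start. The Espn window is chr4:152128926-152129175 on the minus strand and belongs to 1 of 3 annotated starts; capitals mark a match to the CDX motif TTTATNG, read here on the other strand, that starts 197 bases before.
Vil1: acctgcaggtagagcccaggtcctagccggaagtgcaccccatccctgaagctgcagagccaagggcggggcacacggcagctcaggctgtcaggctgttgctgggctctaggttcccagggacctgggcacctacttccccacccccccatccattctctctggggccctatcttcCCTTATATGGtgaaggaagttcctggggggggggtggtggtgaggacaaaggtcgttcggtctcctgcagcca
Espn: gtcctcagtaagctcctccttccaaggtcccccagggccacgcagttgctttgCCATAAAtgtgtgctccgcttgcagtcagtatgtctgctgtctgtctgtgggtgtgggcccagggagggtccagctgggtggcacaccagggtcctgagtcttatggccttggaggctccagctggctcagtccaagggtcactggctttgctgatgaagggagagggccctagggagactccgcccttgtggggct

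Promoter windows were found for 8 of the 10 members, 10 windows in all. The CArG box, searched after the Vil1 sequence had been seen, occurred in 1 member window and in 1.47% of all 32841 windows of the same length. The CDX motif occurred in 1 member window and in 9.81% of all. Neither the TCF/LEF letters CTTTGAT or CTTTGAA (7.48% of all windows) nor the HNF4 letters CAAAGNCCA (1.7%) occurred in a member window; every motif was searched on both strands, and the CDX and HNF4 letters can overlap other motifs. These matches describe letters in a short window and say nothing of binding.

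None of the 13 probe sets passed the test between knockout and wild type, and the members other than Espn differed by -0.07 to 0.08 on the log2 scale. limma called 0 of 13 (adjusted p = 0.991 to 0.999), where 0% of all 45037 probe sets tested were called (adjusted p = 0.326 at the lowest). Counting unadjusted p under 0.05 likewise gave 0 of 13, against 4.15% of all probe sets. Knockout and wild-type values overlapped for every member, while 9.69% of all probe sets had groups that did not overlap. Differences are log2 values of knockout minus those of wild type. Their median was 0.042 over the 13 probe sets, 10 of which were above 0, and 0.0018 over all probe sets, 50.4% of which were above 0. With 1 probe set per gene, 7 of the 10 members were above 0 (median 0.040), against 52.2% of all genes (median 0.0096).

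The bundling proteins come first. Villin, a calcium-regulated protein that bundles actin and can also sever it, read 11.64, 11.97 and 11.82 in knockouts 1, 2 and 3 and 11.61, 11.65 and 11.92 in wild types 4, 5 and 6. Knockout 2 and wild type 6 were the high arrays, and the groups overlapped. Vil1 thus measured 11.81 ± 0.17 against 11.73 ± 0.17 (SD, n = 3 each), giving a difference of 0.08 (limma adjusted p = 0.991, 95% interval from -0.26 to 0.43, or 0.834-fold to 1.35-fold). The difference was 0.18 without wild type 6 and 0.0025 without knockout 2.

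Espn encodes espin, a small bundling protein that lengthens actin bundles, and was the 1 member whose groups lay nearly apart. It read 8.15, 8.62 and 8.43 in the knockouts and 8.83, 8.93 and 8.58 in wild type. Only knockout 2 and wild type 6 crossed, by a small margin. Espn measured 8.40 ± 0.24 against 8.78 ± 0.18 (SD, n = 3 each), a difference of -0.38 (SE 0.17, 95% interval -0.77 to 0.02), which is 0.769-fold. It did not pass (limma unadjusted p = 0.0586, adjusted p = 0.991). The difference was -0.48 without wild type 6, -0.49 without knockout 2 and -0.25 without knockout 1, the lowest array. The next largest difference among the other members was 0.08.

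Tuft cells, chemosensory cells with long microvilli and thick actin bundles, were among the other cell types checked beside Espn. Of 12 measured tuft cell markers 10 were below 0, with a median difference of -0.38, and their level ran from -0.22 to -0.09 over the knockout arrays and from 0.09 to 0.24 over the wild-type arrays. Of the 12, 2 lay above the median gene. Markers of T cells and intraepithelial lymphocytes (11 of 11 below 0, median -0.66) and of fibroblasts (9 of 10 below 0, median -0.36) also had medians below 0. The same held for markers of B and plasma cells (11 of 11, median -1.44) and smooth muscle (5 of 8, median -0.18). Medians were also below 0 for crypt base stem cells (-0.14), macrophages and dendritic cells (-0.07) and enteroendocrine cells (-0.05). The median of small intestinal enterocyte markers was above 0 (0.05). T cell and intraepithelial lymphocyte levels ran from -0.51 to 0.13 over the knockout arrays and from 0.10 to 0.55 over the wild-type arrays. Fibroblast levels ran from -0.40 to -0.05 and from -0.03 to 0.62, and crypt base stem cell levels from -0.10 to -0.03 and from -0.02 to 0.07. B and plasma cell levels ran from -0.72 to -0.47 over the knockout arrays and from -0.78 to 2.58 over the wild-type arrays. Smooth muscle levels ran from -0.21 to -0.03 and from -0.32 to 0.41. Macrophage and dendritic cell levels ran from -0.27 to 0.003 and from -0.51 to 0.82. Wild type 6 was the highest array for B and plasma cells, smooth muscle, and macrophages and dendritic cells. The part of any of these cells in the Espn values was not tested, and in bulk samples fewer cells of a type and less RNA per cell cannot be told apart. Avil, a villin relative on the tuft cell list and on that of the actin core, differed by -0.11 (SE 0.16).

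Pls1, plastin 1, which cross-links filaments throughout the bundle, read 9.75, 9.91 and 10.19 in the knockouts and 9.76, 9.97 and 9.96 in wild type. Knockout 3 alone stood above the rest. The difference was 0.05 (limma adjusted p = 0.995, 95% interval from -0.31 to 0.41), and it was -0.07 without knockout 3.

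Eps8 caps and bundles actin at the microvillus tip. Its brightest probe set read 10.51, 10.91 and 10.80 in the knockouts and 10.61, 10.70 and 10.91 in wild type, giving a difference of -0.0009 (limma adjusted p = 0.999, 95% interval from -0.36 to 0.36). Knockout 1 was the lowest array and knockout 2 and wild type 6 were level at the top. The other Eps8 probe sets placed knockout 1 lowest as well, at 10.16 and 9.24, and differed by 0.04 and 0.005. The 3 probe sets followed each other over the 6 arrays, with Pearson r of 0.87 to 0.93 between pairs.

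**Figure D1:**
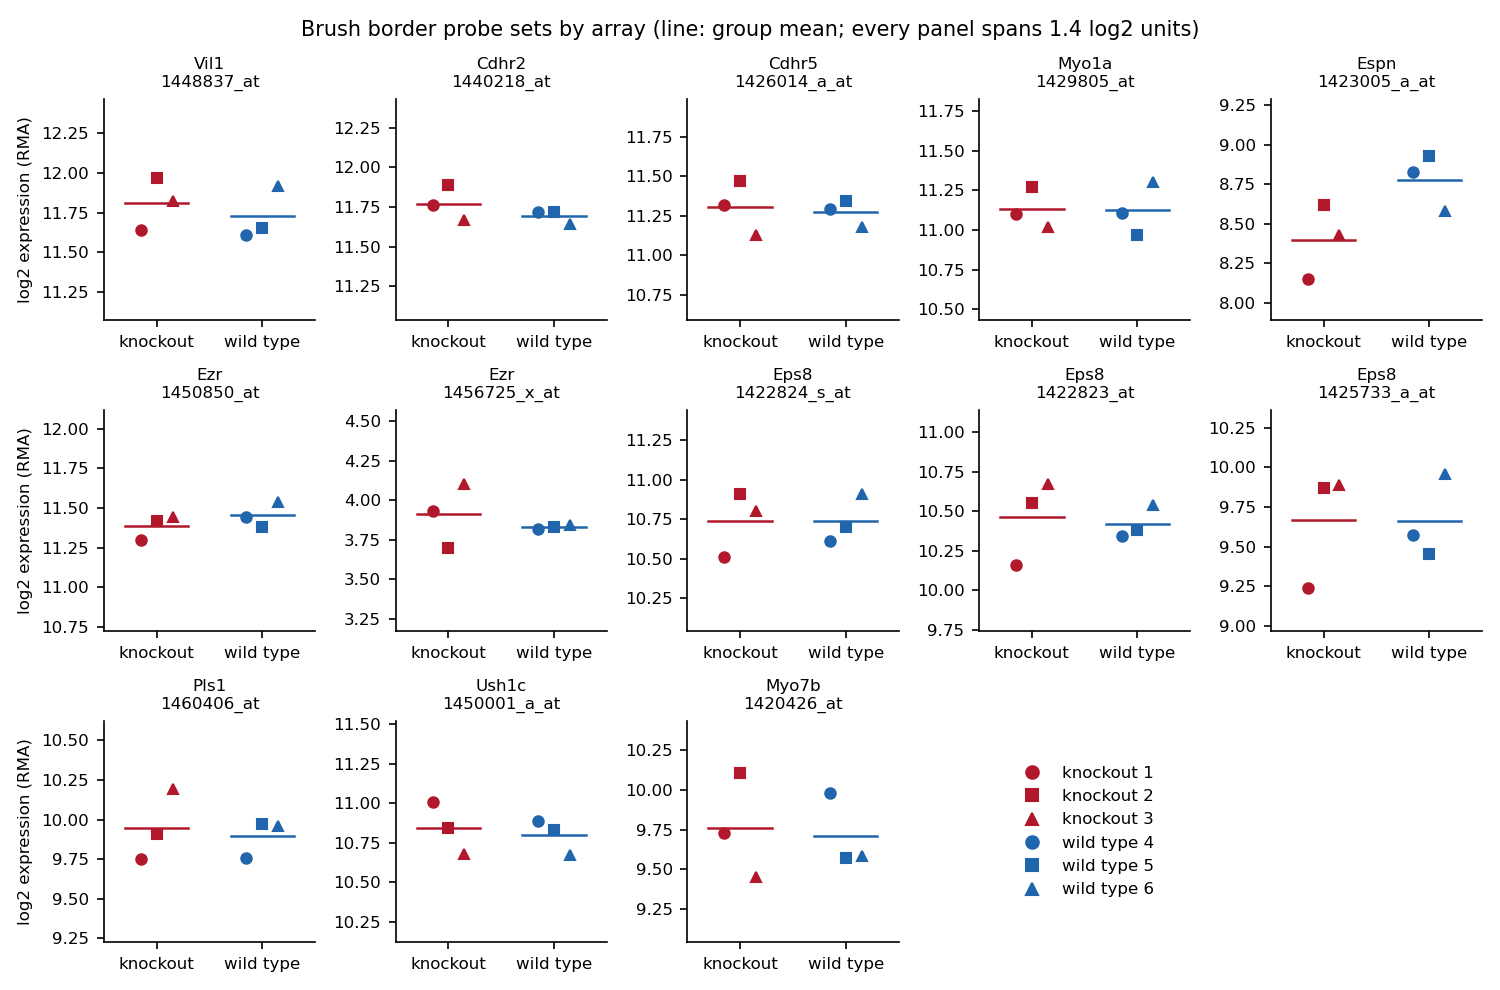
Log2 expression (RMA) of each of the 13 probe sets on the vertical axis, for 3 knockout arrays (red) and 3 wild-type arrays (blue); each symbol is an array, lines are group means and every panel spans the same log2 range. The groups overlap in every panel, and in Espn only knockout 2 (8.62) and wild type 6 (8.58) cross.

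Linkers between the actin core and the membrane showed the same overlap. Ezrin, encoded by Ezr, binds membrane proteins at one end and actin at the other. Its bright probe set read 11.30, 11.42 and 11.44 in the knockouts and 11.44, 11.38 and 11.54 in wild type, a narrow range for all 6 arrays. The difference was -0.07 (limma adjusted p = 0.991, 95% interval from -0.33 to 0.20). The other Ezr probe set had a mean at the 27.2th percentile of all probe sets, against the 97.0th for the bright one. It read 3.93, 3.70 and 4.10 in the knockouts and between 3.82 and 3.84 in the wild-type arrays, a difference of 0.08. No detection call was used, so this dim reading is not shown to be above background.

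Myo1a, the myosin that tethers the actin core to the side of the microvillar membrane, read 11.10, 11.27 and 11.02 in the knockouts and 11.11, 10.97 and 11.30 in wild type. The highest and the lowest array were both wild type. Means were 11.13 in both groups (SD 0.13 and 0.17, n = 3 each), with a difference of 0.003 (limma adjusted p = 0.999, 95% interval from -0.32 to 0.33).

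The intermicrovillar adhesion complex joins the tips of neighbouring microvilli. Its adhesive parts are the protocadherins Cdhr2 and Cdhr5, which bind each other across the gap. Cdhr2 read 11.76, 11.89 and 11.67 in the knockouts and 11.72, 11.72 and 11.64 in wild type, giving a difference of 0.08 (limma adjusted p = 0.991, 95% interval from -0.19 to 0.35). Cdhr5 read 11.32, 11.47 and 11.13 in the knockouts and 11.29, 11.34 and 11.18 in wild type, giving a difference of 0.04 (limma adjusted p = 0.996, 95% interval from -0.28 to 0.35). In both genes knockout 2 was the highest array, and knockout 3 and wild type 6 were the lowest.

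Inside the cell, harmonin, the product of Ush1c, is the scaffold of the complex and the motor protein myosin 7b, the product of Myo7b, brings it to the tips. Ush1c read 11.01, 10.84 and 10.68 in the knockouts and 10.89, 10.83 and 10.67 in wild type, with knockout 1 the highest array. The difference was 0.04 (limma adjusted p = 0.995, 95% interval from -0.27 to 0.36), and it was -0.04 without knockout 1. By the brightest probe set of each gene, Myo7b had the largest spread within groups of the 10 members (pooled SD 0.29). It read 9.73, 10.11 and 9.45 in the knockouts and 9.98, 9.57 and 9.58 in wild type, giving a difference of 0.05 (limma adjusted p = 0.996, 95% interval from -0.44 to 0.54). Without knockout 2 the Myo7b difference was -0.12, and without knockout 3 it was 0.21.

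**Figure D2:**
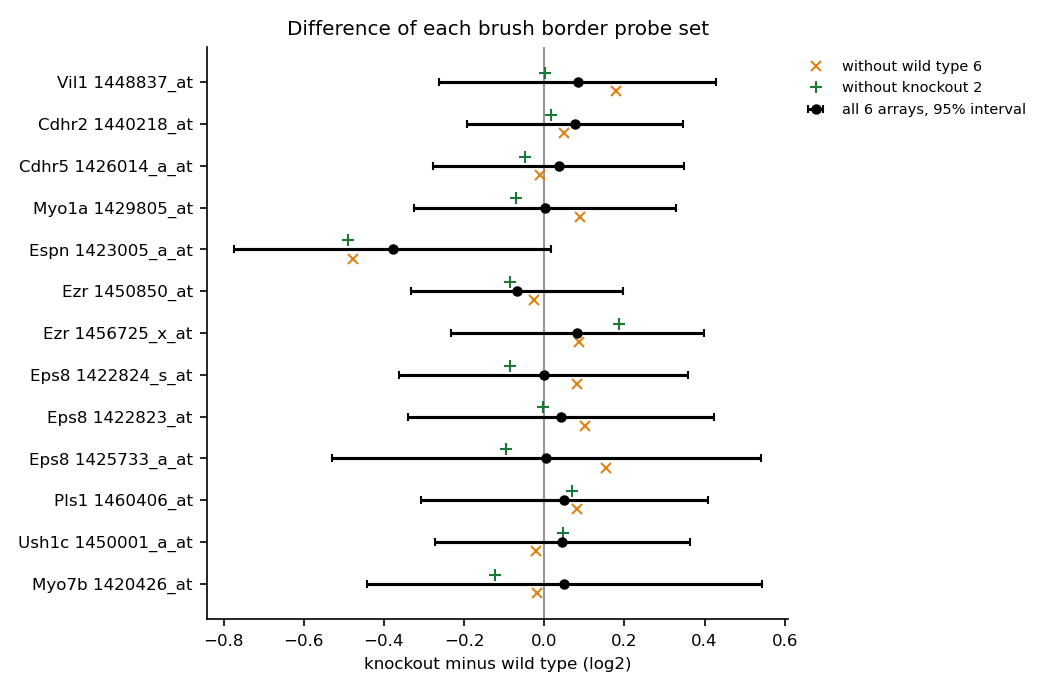
Log2 difference, knockout minus wild type (horizontal axis), for the 13 probe sets, with points for all 6 arrays, bars for the 95% limma interval, and crosses and plus signs for the fit without wild type 6 and without knockout 2. Every interval holds 0, and Espn (-0.38) lies apart from the others, which run from -0.07 to 0.08.

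Outside Espn, the 95% intervals of the 12 other probe sets together reached from -0.53 to 0.54, or 0.693-fold to 1.46-fold. A typical interval extended 0.35 either side for a member and 0.38 for a probe set of the whole array. The brightest probe set of each member lay between the 81.7th (Espn) and the 97.8th (Vil1) percentile of all probe sets.

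The members varied between arrays of one genotype, and not all in the same way. Knockout 2 was the highest array for 4 of 10 members and wild type 6 for 3, while knockout 1 was the lowest for 4. Vil1 and the brightest Eps8 probe set varied together over the 6 arrays (Pearson r = 0.92), as did Cdhr2 and Cdhr5 (r = 0.92). Myo7b followed both protocadherins (r = 0.80 and 0.79). Ush1c followed them less (r = 0.53 and 0.64) and ran opposite to the brightest Eps8 probe set (r = -0.80). Between Vil1 and Cdhr5 r was 0.01. These are descriptions over 6 arrays that share one normalization, with 3 arrays of each genotype, and carry no test.

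**Figure D3:**
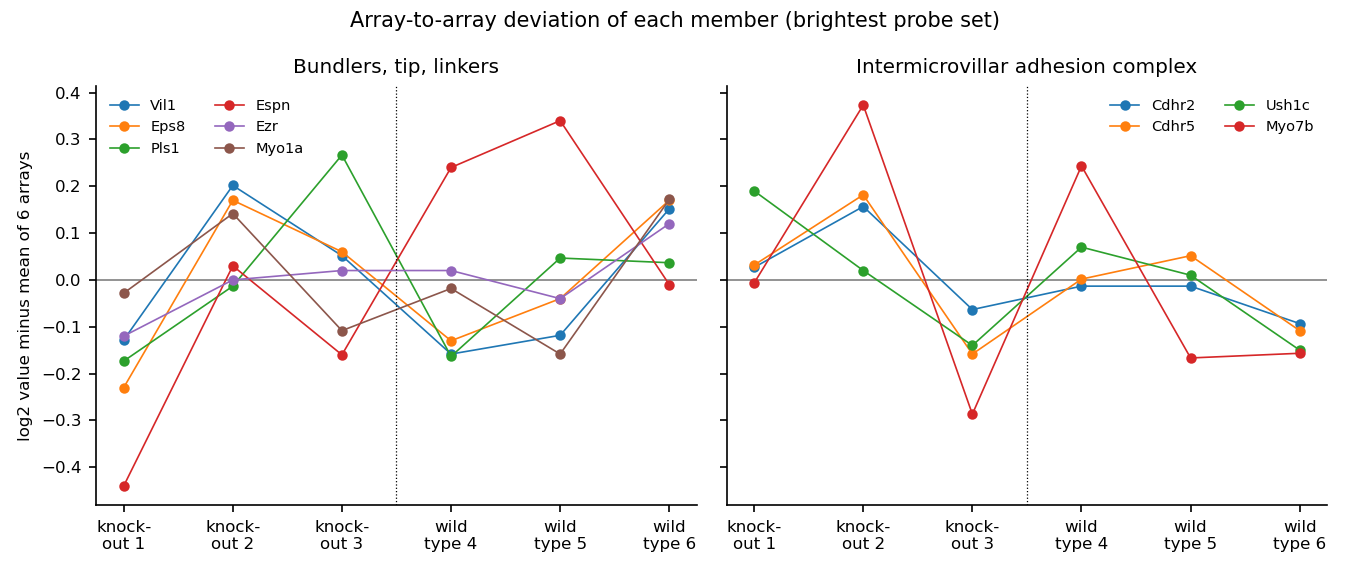
Deviation of each member's log2 value from its own mean over the 6 arrays (vertical axis), by array (horizontal axis, a dotted line parting knockout from wild type); lines join the points of 1 gene and imply no order. Vil1 and Eps8 are high in knockout 2 and wild type 6, while Cdhr2 and Cdhr5 are high in knockout 2 and low in wild type 6.

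Among 9086 other genes brighter than the median gene, the 5 whose values were most like those of Vil1 over the 6 arrays were Mgam (Pearson r = 0.996), Wbp11 (0.986), Khnyn (0.982), Tapbp (0.977) and Tpp2 (0.972). Mgam encodes maltase-glucoamylase, an enzyme of the brush border membrane. It differed between genotypes by 0.08, and the 5 genes by 0.05 to 0.09. They were picked by likeness to Vil1 over arrays of both genotypes, so differences in the direction of Vil1 follow largely from the choice. For the median profile of the 10 members the 5 most alike were Zfp217 (r = 0.988), Myh14 (0.982), Gpank1 (0.977), D5Ertd579e (0.977) and Sptan1 (0.972). Myh14, a nonmuscle myosin heavy chain, and Sptan1, alpha-spectrin, were also on the list of terminal web genes described next. Of the candidates 22 exceeded an r of 0.95 with Vil1 and 11 with the median profile, over only 6 arrays.

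Other genes of the brush border, and some of their relatives, were taken from 5 lists and given 1 probe set per gene. limma called 0 genes in any of them (adjusted p = 0.953 at the lowest), as in all 18193 genes (0% called, adjusted p = 0.291 at the lowest). At an unadjusted p under 0.05 the whole array gave 4.71% of genes. The median difference over all genes was 0.0096, and 52.2% of genes were above 0.

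The actin core and terminal web list had a median of -0.008, with 16 of 34 measured genes above 0 and 0 of 34 at an unadjusted p under 0.05. Beta-actin (Actb) and gamma-actin (Actg1), which form the filaments themselves, differed by -0.03 (SE 0.11) and 0.01 (SE 0.10). Myo6, a myosin that moves towards the base of the microvillus, read 9.98, 10.20 and 10.05 in the knockouts and 9.92, 9.83 and 9.87 in wild type, a difference of 0.21 (SE 0.11). Its other probe sets differed by 0.03 and 0.14. Baiap2l1, which binds Eps8 and shapes membrane, differed by 0.18 (SE 0.11) and by 0.36 in its other probe set, and Vill, a villin relative, by -0.26 (SE 0.16). In the brightest probe sets of Myo6 and Baiap2l1, 2 of 34 genes, the groups did not overlap, against 10.3% of all genes.

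Msn encodes moesin, the ezrin relative that predominates in leukocytes and endothelium. It read 5.63 to 6.08 in the knockouts, 6.00 and 6.15 in wild types 4 and 5, and 9.01 in wild type 6, the array with the high B and plasma cell level. Its other probe set gave 4.67 to 5.27 in the 5 other arrays and 8.75 in wild type 6. The difference of -1.19 (SE 0.76, limma adjusted p = 0.953) was -0.21 without that array. Ezr, in the same family, read 11.54 in wild type 6 and at most 11.44 elsewhere.

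The next list joined partners of the adhesion complex with other cadherins. Its median difference was 0.007 over 7 measured genes, with 4 above 0 and 0 of 7 at an unadjusted p under 0.05. Anks4b and Calml4, which join the scaffold in enterocytes, differed by 0.007 (SE 0.14) and 0.05 (SE 0.12). The cadherins Cdh23 (0.23, SE 0.14), Cdhr3 (-0.15, SE 0.10), Pcdh15 (-0.13, SE 0.11) and Cdhr4 (-0.11, SE 0.11) had the smallest p in this list, and all 4 lay below the median gene. Other probe sets of Cdh23, Cdhr4 and Pcdh15 differed with the opposite sign, by -0.21 for Cdh23, 0.04 for Cdhr4 and 0.08 and 0.19 for Pcdh15. The groups did not overlap for 2 of the 7, Cdhr3 and Pcdh15, both lower in the knockouts, against 4.83% of all genes in that direction.

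Apical scaffolds, ezrin kinases and delivery factors had a median of 0.002, with 14 of 26 above 0 and 0 of 26 at an unadjusted p under 0.05. Slc9a3r1, the PDZ scaffold bound by ezrin, differed by -0.03 (SE 0.20). Pdzk1 and Pdzd3, also PDZ scaffolds of the apical membrane, differed by 0.21 (SE 0.16) and 0.14 (SE 0.11). Stk10, a kinase of ezrin, differed by -0.17 (SE 0.15), and Strada, a partner of the polarity kinase Stk11, by 0.32 (SE 0.26), with -0.29 to -0.04 in its other probe sets. Single arrays moved these values, with Strada at 0.07 without wild type 5 and 0.56 without wild type 4. Pdzk1 was 0.07 without wild type 6 and 0.33 without wild type 4, and Stk10 was -0.33 without wild type 4 and -0.09 without wild type 5. The groups did not overlap for 1 of the 26, Pdzd3, against 10.3% of all genes.

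Enzymes and transporters of the apical membrane held the lowest unadjusted p among the brush border lists. Their median was -0.04, with 9 of 19 above 0. Of the 19, 3 had an unadjusted p under 0.05, all lower in the knockouts, where 2.02% of all genes were. Anpep, aminopeptidase N, read 5.59, 5.54 and 5.93 in the knockouts and 6.78, 6.54 and 6.05 in wild type. All 3 knockouts lay below all 3 wild types, with wild type 6 the nearest. Anpep lay at the 45.3rd percentile of genes by level, below the median gene. Its difference was -0.77 (SE 0.21, 95% interval -1.27 to -0.27, limma unadjusted p = 0.00831), and it did not pass (limma adjusted p = 0.953). It ran from -0.97 without wild type 6 to -0.61 without wild type 4.

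Treh, trehalase, read 2.87, 2.85 and 2.76 in the knockouts and 3.19, 3.35 and 3.10 in wild type, a difference of -0.39 (SE 0.11, limma unadjusted p = 0.0113). Its mean lay at the 8.05th percentile of genes, so this is a difference between dim readings. Xpnpep2, a membrane aminopeptidase also below the median gene (44.6th percentile), differed by -0.76 (SE 0.32, limma unadjusted p = 0.0474) with overlapping groups. Without wild type 5 its difference was -0.47. In the fit over every probe set its limma unadjusted p was 0.0501, so its place among genes under 0.05 depends on the fit. Akp3, an intestinal alkaline phosphatase, differed by -0.31 (SE 0.18), which was -0.17 without knockout 2 and -0.45 without knockout 3. The peptidase Dpp4 differed the other way, by 0.28 (SE 0.17). Groups did not overlap for 2 of the 19, both lower in the knockouts, against 4.83% of all genes. The lymphocyte and fibroblast markers given beside Espn had medians below 0 as well, and their part in the enzyme values was not tested.

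Transcription factors known to act on brush border genes came to a median of 0.0022, 8 of 14 lying above 0 and 0 of 14 at an unadjusted p under 0.05. Hnf4a differed by 0.003 (SE 0.13), Cdx2 by -0.24 (SE 0.23) and Srf, whose motif was matched in the Vil1 window, by 0.002 (SE 0.19). Klf4, a factor of mature surface and goblet cells, read 12.74, 12.89 and 12.98 in the knockouts and 13.04, 13.08 and 13.13 in wild type, a difference of -0.21 (SE 0.11) in groups that did not overlap. Its other probe set differed by -0.06. The groups did not overlap for 1 of the 14, Klf4, against 4.83% of all genes in that direction. Cdx1 differed by 0.23 (SE 0.14), Ppara by -0.58 (SE 0.36) and Isx by -0.90 (SE 0.73). Single arrays moved these 3 in both directions. Cdx1 was 0.12 without knockout 1 and 0.31 without knockout 3. Ppara was -0.19 without knockout 3 and -0.85 without knockout 1. Isx was -0.11 without wild type 5 and -1.58 without wild type 6.

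**Figure D4:**
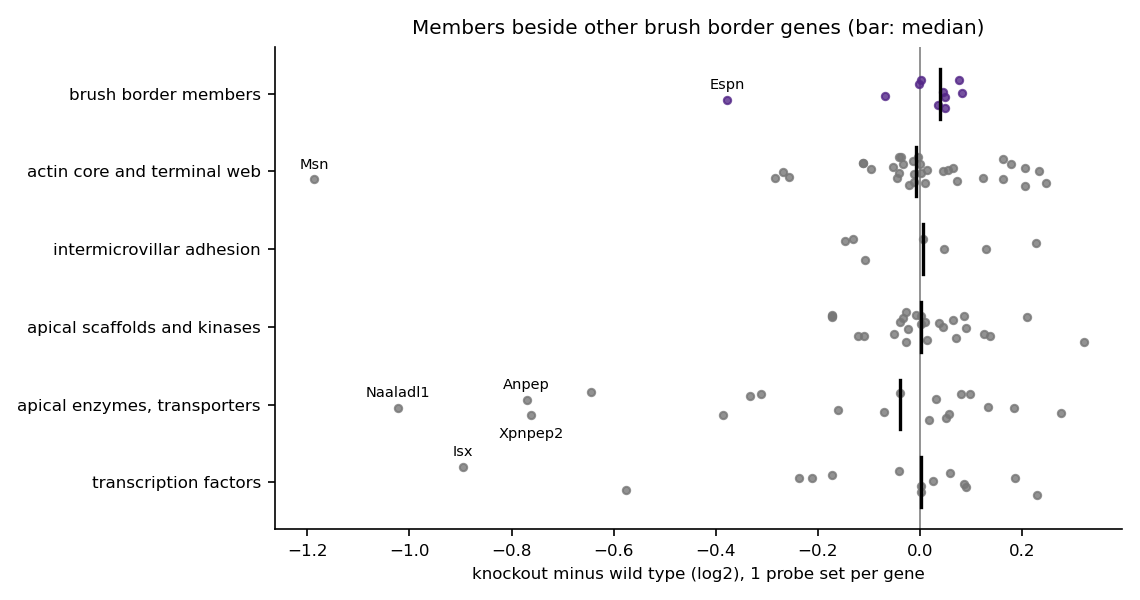
Log2 difference, knockout minus wild type (horizontal axis), for the 10 members and 5 other lists of brush border genes and relatives. Each gene has 1 point from its brightest probe set, and a bar marks each median. Medians lie between -0.04 and 0.04, and Espn (-0.38) is the lowest member.

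Markers of the cells that carry a brush border were read beside the members. Absorptive colonocyte markers had a median of -0.08 over 13 genes, with 5 above 0, and a level between -0.20 and 0.03 in knockout arrays and between -0.04 and 0.11 in wild-type arrays. Knockout 3, the lowest array of this list, was the lowest for 2 of the 10 members, Cdhr5 and Myo7b, and the highest for 1, Pls1. Small intestinal enterocyte markers, of which 4 of 9 lay above the median gene, had a median of 0.05. Their level lay between 0.01 and 0.12 in knockout arrays and between -0.16 and -0.08 in wild-type arrays. These levels did not overlap between the groups, nor did those of the tuft cell, crypt base stem cell and fibroblast lists. By gene, the groups did not overlap for 1 of the 9, against 10.3% of all genes. Of the 9 genes, 1 had an unadjusted p under 0.05, against 4.71% of all genes. Goblet cell markers had a median of -0.01 over 10 genes. The part of these cells in the members' values was not tested.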

How the data were processed

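RNA from EDTA-released, unsorted colon epithelium was pooled from 2 or 3 mice per array, amplified and hybridised to whole-genome Affymetrix mouse arrays, per the labels' protocols. Values are the log2 expression values the authors deposited, made with RMA per the submitters' processing notes; no version is given. RMA normalises arrays to one another, so a shift common to most genes would not show, and log2 differences of dim probe sets tend to be understated. Scanner files were not used here. Precision is set by the number of arrays, 3 in each group, and p-values measure the spread between pools.

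Genes were named from the platform annotation, in which 34958 probe sets had 1 symbol, 932 several and 9211 none; 34754 of the first matched RefSeq (GRCm38.p6) by gene number. The 64 control probe sets were left out. The genotypes were compared with lmFit and eBayes of limma 3.58.1 under R 4.3.3 (two-sided, no covariate) over 45037 probe sets, with Benjamini-Hochberg adjustment and a threshold of 0.05. Gene lists used the brightest probe set per gene (18193 genes) and are described by counts and medians. All member probe sets were named, up to 4 genes per other list by unadjusted p, and the 5 genes most correlated with Vil1 and with the members' median; other list genes (Actb, Actg1, Avil, Anks4b, Calml4, Slc9a3r1, Dpp4, Hnf4a, Cdx2, Srf) were chosen after their values were seen. A list's level in an array is the median of its genes' values after subtracting each gene's 6-array mean. The members and lists were chosen with earlier results of these data known. The fit was tested on simulated data. Alternatives covered scaling, dim or cross-hybridising probe sets, the variance model, array weights, marker levels as covariates and leaving out each array.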

Additional observations from a re-analysis of the deposited data

How the results depend on the processing

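No member passed under any alternative: limma called 0 of the member probe sets in all of them, and the smallest adjusted p of a member was 0.767, for Espn. Espn was below 0 in all 14 alternatives (-0.49 to -0.25). The median member difference ran from -0.047 to 0.083 when single arrays were left out, and was -0.00051 with cyclic loess. Over all probe sets limma called 0 to 3 when an array was left out, the 3 without wild type 6 (Lrg1, Pla2g2a and Rgcc, chosen after their values were seen), and 2 with the B and plasma cell level as a covariate (Lrg1 and Pla2g2a).

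Several members near 0 changed sign without passing. With cyclic loess Myo1a was -0.026, the dimmest Eps8 probe set -0.049, Pls1 -0.00051 and Myo7b -0.0032. With array medians subtracted the brightest Eps8 probe set was 0.036. With array weights Cdhr5 was -0.019, the brightest Eps8 probe set 0.063, Ush1c -0.025 and Myo7b -0.068. With the epithelial level as a covariate the dimmest Eps8 probe set was -0.042, and with the B and plasma cell level Cdhr5 was -0.025, the brightest Eps8 probe set 0.094, Ush1c -0.033 and Myo7b -0.0055. Without wild type 6 Cdhr5 was -0.0094, the brightest Eps8 probe set 0.083, Ush1c -0.020 and Myo7b -0.017. The cause was not tested.

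Leaving out single arrays gave 0.0025 to 0.18 for Vil1, 0.018 to 0.13 for Cdhr2, -0.10 to -0.025 for the bright Ezr probe set, -0.047 to 0.13 for Cdhr5, -0.076 to 0.090 for Myo1a, -0.010 to 0.19 for the dim Ezr probe set, -0.085 to 0.11, -0.060 to 0.19 and -0.11 to 0.22 for the Eps8 probe sets, -0.070 to 0.15 for Pls1, -0.038 to 0.13 for Ush1c and -0.12 to 0.21 for Myo7b. The settings for the other lists were added after seeing the data. Their medians ran from -0.018 to 0.045 for the actin core and -0.051 to 0.044 for adhesion partners and other cadherins. They ran from -0.016 to 0.043 for scaffolds, -0.061 to 0.021 for enzymes and -0.033 to 0.034 for transcription factors. With probe sets averaged within genes the transcription factor median was -0.052, Pcdh15 0.044 and Strada -0.026. No paired analysis was possible because the groups share no replicate numbers. The number of arrays, 3 a group, limits how small a difference could be called.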
